A study of Mus musculus with 28 samples.

Results

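The genes described here encode the inducible transcription factors of the AP-1, ATF3 and EGR group in mouse macrophages. They are 10 genes (Fos, Fosb, Fosl1, Fosl2, Jun, Junb, Jund, Atf3, Egr1 and Egr2), taken by name out of the 54532 genes of the count table, and all 10 were found in it. Bone marrow-derived macrophages (BMDMs) are primary macrophages grown from bone marrow with M-CSF, here for 7 days from C57/B6JB mice aged 8 to 12 weeks. After a night in culture they were washed and given medium with 1 mM CaCl2 containing PBS (control), plasma-derived von Willebrand factor (VWF, 10 µg/ml), the blood glycoprotein that tethers platelets at a wound, or bacterial lipopolysaccharide (LPS, 100 ng/ml), the Toll-like receptor 4 agonist. RNA was sequenced after 3.5 h and after 16 h, in 5 control, 5 VWF and 4 LPS cultures at each time, 28 in all. The labels number the cultures as biological replicates without saying whether a number marks an animal or a day, so the p-values below measure the spread between these cultures.

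AP-1 is a dimer of basic leucine zipper proteins, usually a FOS family member with a JUN family member, and it binds the TRE element in promoters and enhancers. FOS, JUN and EGR genes are immediate-early genes: in a resting cell their transcription starts within minutes of a signal passed on by MAP kinases, serum response factor and its partners, and their short-lived mRNAs decline soon afterwards. In macrophages AP-1 works beside NF-κB on cytokine genes, ATF3 is a Toll-like receptor-induced factor best known as a brake on such genes, and EGR1 and EGR2 are zinc-finger factors linked to M-CSF signalling and macrophage differentiation.

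Promoter sequence was searched for 8 of the 10 genes, in 12 windows, and not for Fosl1 and Egr1. The windows are the 250 bases before a transcript start in RefSeq (GRCm38.p6), and both strands were searched for the palindromic TRE (TGANTCA), the palindromic CRE (TGACGTCA), the CRE core (TGACG), a TRE-like variant (TGACATCA), the EGR site (GCGNGGGCG) and the CArG box of serum response factor. The CRE core lies within the palindromic CRE. Sequence outside these windows was not searched. Those 6 motifs occurred in 6.75%, 1.55%, 17.8%, 2.93%, 4.7% and 1.47% of the 32851 RefSeq windows of that length. The palindromic TRE and the palindromic CRE were in none of the 12 windows. The 5 sequences below belong to the genes on which the results turn, and capitals mark every match to the 6 motifs. For Fos, at chr12:85473640-85473889 (plus strand), directly before the gene's first exon, they are 2 CRE cores. For Jun, at chr4:95052223-95052472 (minus strand), directly before the gene, they are 1 TRE-like site. For Junb, at chr8:84978749-84978998 (minus strand), they are 1 CRE core. For Atf3, at chr1:191183334-191183583 (minus strand), before a start inside the annotated gene, they are 1 CRE core. For Egr2, at chr10:67537619-67537868 (plus strand), 1 of 5 windows, chosen for its matches and lying inside the longest annotated form of the gene, they are a CArG box between 2 CRE cores.
Fos: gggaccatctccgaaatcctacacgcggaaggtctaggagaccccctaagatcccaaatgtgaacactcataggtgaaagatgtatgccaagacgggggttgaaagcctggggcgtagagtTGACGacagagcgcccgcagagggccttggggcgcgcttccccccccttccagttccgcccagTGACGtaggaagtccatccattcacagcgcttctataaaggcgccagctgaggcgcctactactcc
Jun: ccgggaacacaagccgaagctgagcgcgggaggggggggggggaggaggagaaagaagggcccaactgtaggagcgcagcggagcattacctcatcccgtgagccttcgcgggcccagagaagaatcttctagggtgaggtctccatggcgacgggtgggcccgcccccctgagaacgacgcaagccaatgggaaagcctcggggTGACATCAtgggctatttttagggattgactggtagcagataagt
Junb: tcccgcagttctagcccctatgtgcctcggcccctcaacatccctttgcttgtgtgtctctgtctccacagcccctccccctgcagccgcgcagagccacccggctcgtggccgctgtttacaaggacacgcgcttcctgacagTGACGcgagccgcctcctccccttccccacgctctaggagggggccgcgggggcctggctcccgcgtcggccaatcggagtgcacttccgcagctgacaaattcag
Atf3: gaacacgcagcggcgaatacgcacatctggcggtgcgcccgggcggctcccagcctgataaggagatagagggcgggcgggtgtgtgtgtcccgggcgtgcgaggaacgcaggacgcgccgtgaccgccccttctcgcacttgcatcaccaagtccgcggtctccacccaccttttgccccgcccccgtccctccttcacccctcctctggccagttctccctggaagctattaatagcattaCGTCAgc
Egr2: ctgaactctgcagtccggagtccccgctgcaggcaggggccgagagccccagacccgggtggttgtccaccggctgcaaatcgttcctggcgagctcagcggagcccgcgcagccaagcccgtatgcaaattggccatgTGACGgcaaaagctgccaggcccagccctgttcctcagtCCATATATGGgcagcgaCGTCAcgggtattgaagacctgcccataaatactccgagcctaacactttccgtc

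The libraries held between 41131209 and 77699206 counted reads (median 52986574). Of the 28 cultures, 2 stood apart from their group: over 8867 expressed genes, control culture 5 at 16 h had a correlation of 0.913 with the mean of its group and LPS culture 4 at 16 h one of 0.950, against 0.977 to 0.997 for the other 26. What their omission does to the members is given below. The 7 macrophage markers (Csf1r, Adgre1, Cd68, Itgam, Lyz2, Mertk, Fcgr1) were all present and summed to between 4858 and 25694 CPM (counts scaled to a common library size), while 18 markers of lymphoid, granulocytic, dendritic, stromal, endothelial and mast cells summed to 31.8 to 390 CPM, and up to 4 of the 18 had no read in any culture of a group. For VWF against control at 16 h, 3 of the 7 macrophage markers rose and none fell (Fcgr1 by 2.89, Adgre1 by 1.80 and Itgam by 1.18 on the log2 scale), where 4.55% of all genes rose and 4.15% fell. In the other comparisons with control, Mertk had a log2 fold change of -2.67 with VWF at 3.5 h, Fcgr1 one of 2.48 with LPS at 3.5 h, and Fcgr1, Adgre1 and Lyz2 had 4.48, 1.11 and -1.38 with LPS at 16 h, with no other macrophage marker passing. Between VWF and LPS, Mertk and Fcgr1 were lower with VWF at both times and Lyz2 was higher at 16 h. From 3.5 h to 16 h, 4 of the 7 rose with VWF, 1 with LPS and none in controls, against 9.15%, 14.6% and 4% of all genes. Of the 4 markers of other cell types that were tested, S100a9 rose with LPS at 3.5 h (log2 fold change 1.73), and S100a8 rose with time in controls, VWF and LPS cultures (1.89, 2.04 and 1.15). The marker sum was 18358 to 25694 CPM in the VWF cultures at 16 h and at most 16238 CPM elsewhere, with the lowest sum in control culture 5 at 16 h. The part of these marker differences in the results below was not tested. In such bulk cultures, fewer cells of a type and less RNA per cell cannot be told apart.

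Each comparison was made with edgeR's quasi-likelihood test on counts, over all genes that reached 10 TPM (counts divided by exon length and scaled to a common total) in at least 1 culture compared. A gene passed the thresholds when its Benjamini-Hochberg adjusted p was below 0.05 and its log2 fold change exceeded 1 in either direction. At 3.5 h, 9 of the 10 genes were tested for VWF against control: Junb rose and Fos, Jun and Egr2 fell, where 14.7% of all 8200 genes tested passed the thresholds, 9.1% rising and 5.59% falling. For LPS against control at 3.5 h, Junb rose and Fos and Egr2 fell among 9 tested, against 24.5% of all genes, 12.8% rising and 11.8% falling. Between VWF and LPS at 3.5 h, Egr2 alone among 8 tested passed both thresholds, higher with VWF, against 11.4% of all genes, 4.71% higher and 6.71% lower. The adjusted p alone was below 0.05 for 6 of the 8. For VWF against control at 16 h, Fos rose and Jund, Atf3 and Egr2 fell among 8 tested, against 8.71% of all genes, 4.55% rising and 4.15% falling. With LPS at 16 h, Junb and Atf3 rose and Egr2 fell among 8 tested, against 27.6% of all genes, 15.3% rising and 12.4% falling. Between the VWF and LPS cultures at 16 h, 6 of 9 genes tested passed both thresholds, all lower with VWF, against 25.5% of all genes, 11.1% higher and 14.5% lower. These 6 were Fosl1, Fosl2, Junb, Jund, Atf3 and Egr2. Of these, Fosl1 and Egr2 reached 10 TPM only in LPS culture 1 (12.7 and 11.7 TPM), in the group where they were higher. The count, its direction and the members' median given below draw on these genes. With no expression filter their log2 fold changes were -2.05 and -1.17. The same control cultures serve both treatments, and the median log2 fold change over all genes tested lay between -0.03 and 0.02 in these 6 comparisons. The medians over the members tested, in the same order, were -0.35, -0.05, -0.07, -0.37, 0.76 and -1.16. In the same order, the ranges of the 2 groups did not overlap for 5, 6, 5, 4, 4 and 5 of the members tested, against 35.5%, 56.3%, 39.9%, 24.6%, 47.9% and 51.6% of all genes.

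From 3.5 h to 16 h, Fos, Junb and Egr1 fell in the control cultures among 9 members tested, against 9.08% of all genes, 4% rising and 5.09% falling. In the VWF cultures Jun rose and Fosl2, Junb, Jund, Atf3 and Egr2 fell among 8 tested, against 21.4% of all genes, 9.15% rising and 12.2% falling. In the LPS cultures Junb and Egr1 fell among 9 tested, against 28.1% of all genes, 14.6% rising and 13.5% falling. Over time the ranges did not overlap for 4 members in controls, 7 with VWF and 4 with LPS, against 37.4%, 54.5% and 55.2% of all genes. The VWF effect against control changed between the times in 6 of 9 members tested, upwards for Fos and Jun and downwards for Fosl2, Jund, Atf3 and Egr2, against 13.5% of all genes, 5.69% upwards and 7.77% downwards. The change of the LPS effect passed both thresholds in Fos alone of 9, upwards, against 26.3% of all genes, 13.5% upwards and 12.8% downwards. Short of the fold threshold, Jun (log2 difference 0.94), Atf3 (0.80) and Junb (0.69) had an edgeR adjusted p below 0.05.

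Without control culture 5 and LPS culture 4 at 16 h, an omission chosen after seeing the data, Jund lost its calls for VWF against control and against LPS at 16 h, and the other members' calls in the comparisons that use these cultures stayed. Fos and Fosl1 then also passed for LPS against control at 16 h (1.01 and 1.35), and Fosl1 for the change of the LPS effect (1.41). For VWF against LPS at 16 h the log2 fold changes were then -2.70 for Atf3, -1.57 for Junb and -1.24 for Egr2. With time in controls they were -1.86 for Fos, -2.14 for Junb and -3.32 for Egr1, and in LPS cultures -1.40 for Junb and -2.25 for Egr1. The change of the VWF effect was 2.54 for Fos, -1.52 for Fosl2, -1.13 for Atf3 and -2.66 for Egr2, and that of the LPS effect 2.77 for Fos. The time courses of VWF and LPS differed by -2.04 for Fosl1, -1.95 for Fosl2, -1.22 for Junb, -1.91 for Atf3 and -3.09 for Egr2.

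**Figure D1:**
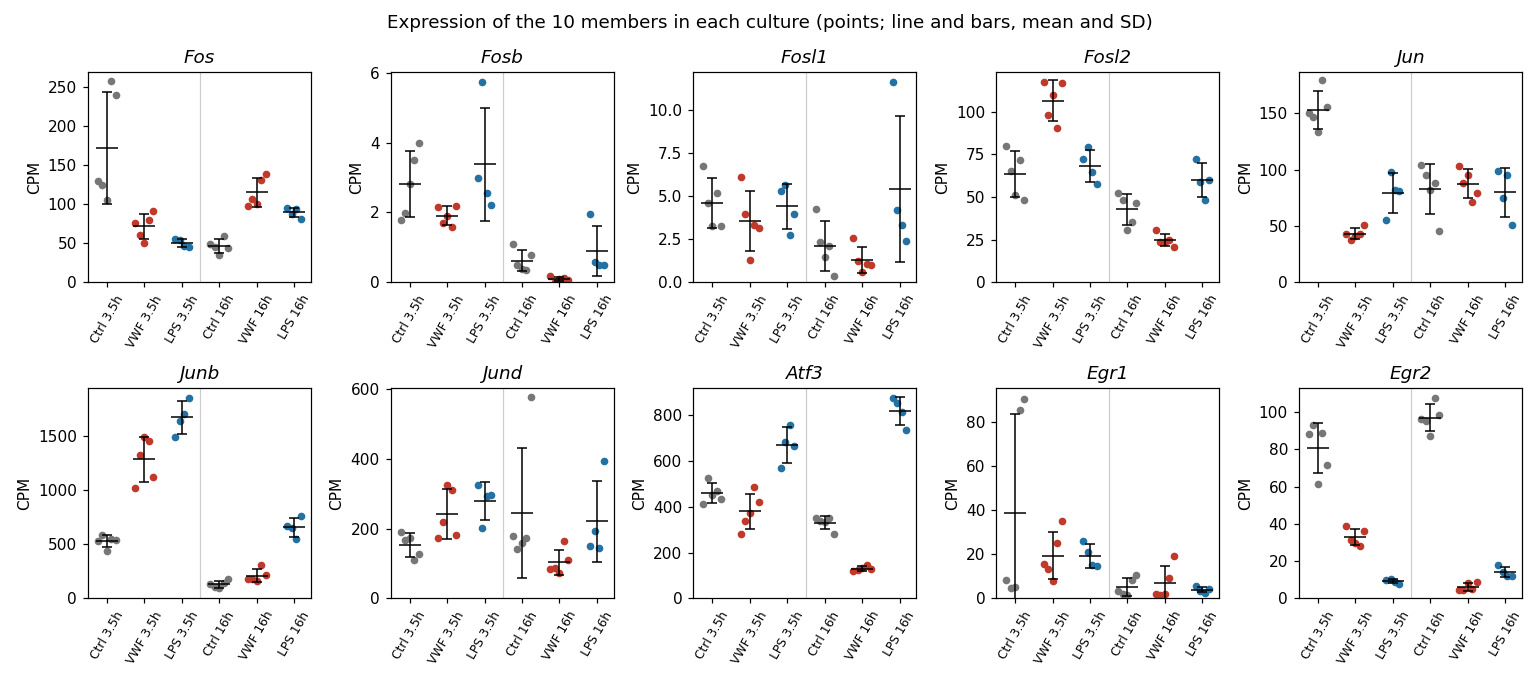
Normalised read counts (CPM, linear axes from 0) of each gene in the 28 cultures. Points are cultures, the horizontal line and bars are the mean and SD, grey is control, red VWF and blue LPS, with 3.5 h left of the vertical line and 16 h right of it. Junb was highest in the LPS cultures at 3.5 h (1496 to 1857 CPM), Egr2 was highest in the controls at both times (61.3 to 108 CPM), and Atf3 at 16 h was lowest with VWF (118 to 145 CPM) and highest with LPS (735 to 875 CPM).

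Among the FOS family, Fos (ENSMUSG00000021250, GRCm38 chr12:85473890-85477273) encodes the prototype partner of JUN proteins. At 3.5 h its level was 129, 125, 105, 258 and 239 CPM in the 5 control cultures. It was 75.3, 60.9, 49.8, 79.5 and 91.6 CPM with VWF and 55.6, 54.3, 46.7 and 45.2 CPM with LPS. All treated cultures lay below all controls, and control cultures 4 and 5 lay well above the other 3. The fall was by 1.24 on the log2 scale with VWF (SE 0.27, edgeR adjusted p = 0.00288) and by 1.74 with LPS (SE 0.26, edgeR adjusted p = 0.00015).

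By 16 h the order had turned. Fos stood at 48.9, 44.6, 35.1, 58.9 and 43.3 CPM in the controls. It stood at 97.8, 107, 100.2, 131 and 139 CPM with VWF and 94.4, 87.5, 94.0 and 81.2 CPM with LPS, so that neither treated group overlapped the controls and VWF lay above LPS throughout. Fos rose with VWF by 1.30 on the log2 scale (SE 0.15, edgeR adjusted p = 0.000102; 1.28 without the 2 cultures that stood apart). With LPS its log2 difference was 0.99 (SE 0.14, edgeR adjusted p = 0.000218), just short of the fold threshold, and 1.01 without those cultures. Fos in the control cultures themselves fell by 1.89 between 3.5 h and 16 h (SE 0.27, edgeR adjusted p = 0.000453). The difference of the VWF effect between the times was 2.58 (SE 0.33, edgeR adjusted p = 4.34e-06) and that of the LPS effect 2.75 (SE 0.34, edgeR adjusted p = 3.81e-06). Both rest on the same falling controls. For the change from 3.5 h to 16 h, VWF and LPS differed in Fos by -0.18 (SE 0.22, edgeR adjusted p = 0.499).

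Fosl2 (ENSMUSG00000029135, chr5:32135801-32157842) encodes FRA-2, a FOS relative without the strong activation domain of FOS. Its levels at 3.5 h were 80.0, 65.4, 51.1, 71.8 and 48.4 CPM in controls, 118, 98.2, 109, 90.2 and 117 CPM with VWF, and 72.2, 79.1, 64.5 and 57.5 CPM with LPS. The VWF cultures lay above both other groups, which overlapped. The log2 difference from controls was 0.77 with VWF (SE 0.15, edgeR adjusted p = 0.00113), below the fold threshold, and 0.13 with LPS (edgeR adjusted p = 0.498). By 16 h the VWF cultures had become the lowest, at 30.6, 23.6, 23.5, 24.7 and 20.8 CPM, against 52.2, 48.3, 30.9, 35.3 and 46.4 CPM in controls and 72.4, 58.6, 48.2 and 59.6 CPM with LPS. They lay below every control and every LPS culture, although the highest VWF culture was only just below the lowest control. The log2 difference from controls was -0.80 with VWF (SE 0.16, edgeR adjusted p = 0.00361), short of the fold threshold. Fosl2 fell within the VWF cultures by 2.10 on the log2 scale from 3.5 h to 16 h (SE 0.11, edgeR adjusted p = 3.74e-08). Against LPS at 16 h it was lower by 1.28 (log2 fold change -1.28, SE 0.14, edgeR adjusted p = 3.12e-05; -1.28 without the cultures that stood apart, and -0.82 when scaled to library size alone). The turn of the VWF effect between the times was -1.53 (SE 0.23, edgeR adjusted p = 2.18e-05). The time courses of VWF and LPS differed by -1.96 (SE 0.19, edgeR adjusted p = 2.00e-07).

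Fosl1 and Fosb were scarce. Fosl1 (ENSMUSG00000024912, chr19:5447547-5455946) encodes FRA-1, and 57.2% of its exon length is shared with Ccdc85b on the other strand, so without a stated strand setting reads of the pair cannot be told apart. Fosl1 was between 0.348 and 11.7 CPM over the 28 cultures, and all neighbouring groups overlapped when ordered by their means. At 16 h the LPS cultures had 11.7, 4.20, 3.33 and 2.42 CPM and the VWF cultures 2.56, 1.25, 0.604, 1.06 and 1.01 CPM. The groups overlapped at 1 culture each, and Fosl1 was lower with VWF by 2.06 (log2 fold change -2.06, SE 0.54, edgeR adjusted p = 0.00802; -2.30 without the cultures that stood apart). In this comparison Fosl1 reached 10 TPM only in LPS culture 1 (12.7 TPM), and it was not tested without that culture. For Ccdc85b, the overlapping gene, the same comparison gave a log2 fold change of 0.93 (SE 0.54, edgeR adjusted p = 0.163).

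Fosb (ENSMUSG00000003545, chr7:19302696-19310051), whose short splice form lingers after repeated stimulation in neurons, reached at most 2.14 TPM and was not tested with the expression filter. It had 1.78, 1.98, 2.80, 3.49 and 3.99 CPM in controls at 3.5 h, 2.15, 1.69, 1.89, 1.59 and 2.20 CPM with VWF and 3.00, 5.74, 2.54 and 2.22 CPM with LPS. By 16 h the controls had 1.09, 0.505, 0.376, 0.358 and 0.773 CPM, the LPS cultures 1.96, 0.576, 0.504 and 0.504 CPM, and the VWF cultures 0.189, 0, 0.0794, 0.106 and 0.0732 CPM, which is 0 to 12 reads a library. Every VWF culture at 16 h lay below every other culture of the study. With no expression filter the log2 fold change of Fosb at 16 h was -2.73 for VWF against control (SE 0.67, edgeR adjusted p = 0.0154) and -3.30 for VWF against LPS (SE 0.72, edgeR adjusted p = 0.00257). These estimates rest on a handful of reads.

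Per unit of length, Fos made up most of the FOS family transcripts in each group. Its mean share of the summed TPM of the 4 genes was 87.5% ± 4.6 (SD, n = 5) in controls at 3.5 h, 69.4% ± 4.86 (n = 5) with VWF and 68.9% ± 1.92 (n = 4) with LPS. The share of Fosl2 was 8.82% ± 3.29 in controls, 25.9% ± 5.00 with VWF and 22.6% ± 1.02 with LPS. Later, at 16 h, Fos held 93.7% ± 2.03 of the family in the VWF cultures, 81.2% ± 4.57 in the LPS cultures and 77.9% ± 4.17 in controls, and Fosl2 held 5.01% ± 1.26, 13.2% ± 1.74 and 17.6% ± 3.31. The VWF cultures thus had the second lowest Fos share at 3.5 h and the highest at 16 h. These shares are descriptions and were not tested. Counted as reads (CPM), without division by length, Fosl2 led the family at 3.5 h with VWF (58.3% against 38.7% for Fos) and with LPS (54.0% against 40%).

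**Figure D2:**
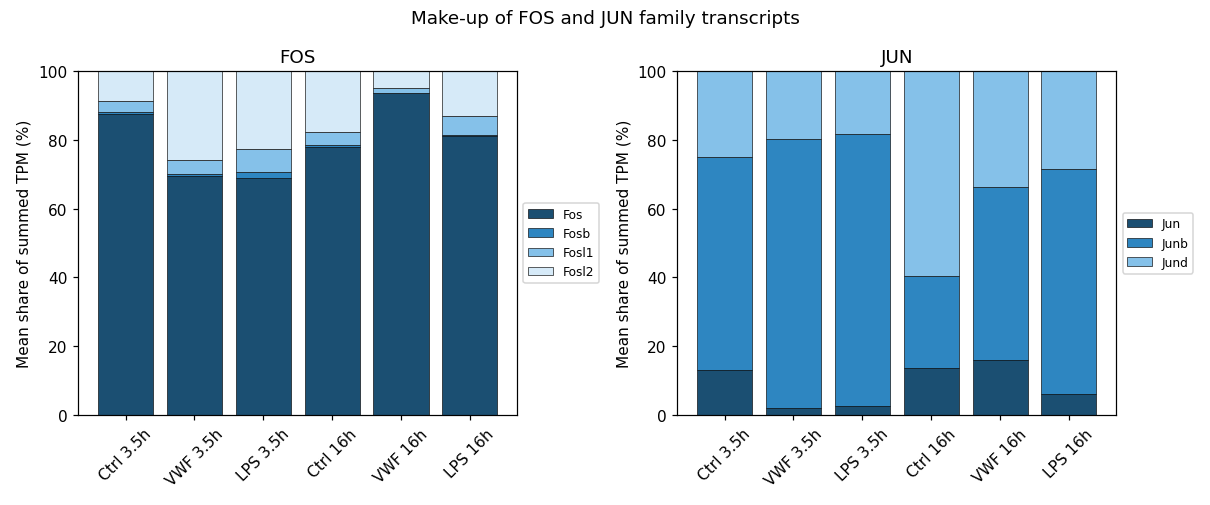
Mean share of each gene in the summed TPM of the FOS family (left) and of the JUN family (right) in the 6 groups, in percent; stacked bars are means over 4 or 5 cultures. Fos was the largest part of the FOS family in all 6 groups, and Junb was the largest part of the JUN family in all groups except the controls at 16 h, where Jund held 59.5%.

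In the JUN family, Jun (ENSMUSG00000052684, chr4:95049034-95052222) encodes c-JUN, the target of the JNK kinases. The 5 control cultures at 3.5 h had 151, 147, 134, 179.6 and 156 CPM of Jun. With VWF the values were 42.5, 37.3, 41.2, 43.2 and 50.9 CPM, and with LPS 55.3, 97.9, 81.6 and 81.1 CPM. The 3 groups did not overlap, with VWF lowest. Jun fell by 1.81 with VWF on the log2 scale (SE 0.10, edgeR adjusted p = 7.30e-08), a 3.51-fold difference, while the log2 fold change with LPS was -0.93 (SE 0.15, edgeR adjusted p = 0.000244) and short of the fold threshold. Scaled to library size alone, the log2 fold changes of Jun were -2.03 with VWF and -1.48 with LPS. VWF and LPS differed directly by -0.85 (SE 0.15, edgeR adjusted p = 0.000953).

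At 16 h Jun no longer separated the groups. It was 104, 95.2, 82.2, 87.7 and 45.7 CPM in controls, 103, 88.3, 94.8, 70.8 and 79.1 CPM with VWF and 98.5, 75.1, 95.0 and 50.5 CPM with LPS, and all ranges overlapped. The log2 fold change was 0.06 for VWF (SE 0.21, edgeR adjusted p = 0.868) and -0.02 for LPS against control (SE 0.26, edgeR adjusted p = 0.96). From 3.5 h to 16 h Jun rose in the VWF cultures by 1.03 (SE 0.12, edgeR adjusted p = 1.27e-05), close to the fold threshold and under it without VWF culture 2 at 3.5 h or VWF culture 1 or 3 at 16 h, and changed by -0.89 in controls (SE 0.19, edgeR adjusted p = 0.00409). The VWF effect changed by 1.91 between the times (SE 0.23, edgeR adjusted p = 1.95e-06; 1.74 without the cultures that stood apart).

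Junb (ENSMUSG00000052837, chr8:84974484-84978718), a JUN relative that can hold c-JUN activity in check and that is strongly transcribed in activated myeloid cells, was the most abundant of the 10 in treated cultures at 3.5 h by TPM. It had 532, 584, 438, 554 and 536 CPM in controls, 1024, 1329, 1491, 1457 and 1126 CPM with VWF and 1496, 1637, 1708 and 1857 CPM with LPS. The groups were fully apart, although the lowest LPS culture lay only just above the highest VWF culture. Junb rose by 1.30 with VWF (SE 0.12, edgeR adjusted p = 4.01e-06) and by 1.68 with LPS (SE 0.11, edgeR adjusted p = 1.13e-07), and the direct difference was -0.36 (SE 0.13, edgeR adjusted p = 0.035).

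All groups had less Junb at 16 h. Control cultures had 131, 106, 100.5, 142 and 181 CPM, VWF cultures 179.5, 183, 159.9, 307 and 218 CPM and LPS cultures 674, 648, 546 and 765 CPM. The LPS cultures stayed above the others, whereas the VWF and control ranges met. Between the times Junb fell by 1.99 in controls (edgeR adjusted p = 1.79e-05), by 2.61 with VWF (edgeR adjusted p = 2.98e-07) and by 1.32 with LPS (edgeR adjusted p = 2.51e-05), with SEs of 0.17, 0.18 and 0.13. At 16 h Junb was higher than in controls by 2.35 with LPS (SE 0.19, edgeR adjusted p = 6.18e-06; 2.41 without the cultures that stood apart). With VWF the log2 fold change was 0.66 (SE 0.20, edgeR adjusted p = 0.0349), below the fold threshold. The time courses of VWF and LPS differed by -1.31 (SE 0.23, edgeR adjusted p = 0.000162).

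Jund (ENSMUSG00000071076, chr8:70698949-70700616) encodes the JUN protein usually held to be constitutive. It shares 52.6% of its exon length with Gm11175, which had no read in any culture. At 3.5 h Jund had 191, 169, 173, 109 and 127 CPM in controls, 172, 220.2, 326, 310.5 and 183 CPM with VWF and 325, 203, 294 and 296 CPM with LPS. No comparison at 3.5 h passed the fold threshold, the log2 fold change being 0.67 with VWF (SE 0.21, edgeR adjusted p = 0.024) and 0.88 with LPS (SE 0.19, edgeR adjusted p = 0.00174). At 16 h Jund had 178, 143, 158, 172 and 577 CPM in controls, 83.3, 86.7, 71.8, 165 and 109 CPM with VWF and 151, 194, 146 and 393 CPM with LPS. The highest values at 16 h were those of control culture 5 and LPS culture 4, the cultures that stood apart. Jund was lower with VWF than in controls by 1.25 (log2 fold change -1.25, SE 0.41, edgeR adjusted p = 0.0445), but without these 2 cultures the log2 fold change was -0.67 (edgeR adjusted p = 0.0256), short of the fold threshold. With a replicate block it was -1.08 (edgeR adjusted p = 0.0558). Against LPS it was -1.09 (SE 0.34, edgeR adjusted p = 0.0183) and -0.67 (edgeR adjusted p = 0.039) without them, and this call was also lost without VWF culture 3. The fall within VWF cultures from 3.5 h to 16 h, by 1.23 (SE 0.25, edgeR adjusted p = 0.00106), uses neither culture, and its ranges of 172 to 326 and 71.8 to 165 CPM did not overlap. The change of the VWF effect with time was -1.90 (SE 0.49, edgeR adjusted p = 0.00501) and -1.32 (edgeR adjusted p = 0.00268) without them.

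The 3 JUN genes summed to 1196 ± 116 TPM (SD, n = 5) in controls at 3.5 h, 1987 ± 169 TPM (n = 5) with VWF and 1877 ± 103 TPM (n = 4) with LPS. Junb held 62.1% ± 4.17, 78.1% ± 2.10 and 79.1% ± 2.90 of this sum, and Jun held 13.0% ± 1.62, 1.95% ± 0.5 and 2.70% ± 0.644. The sums at 16 h were 634 ± 174 TPM in controls, 494 ± 72.3 TPM with VWF and 908 ± 80.1 TPM with LPS. Jund had become the largest part in controls, at 59.5% ± 11, against 33.7% ± 3.49 with VWF and 28.6% ± 8.16 with LPS. The highest control sum (934 TPM) and the highest Jund share (78.8%) at 16 h were those of control culture 5, which stood apart. The lowest Jund share in controls was 53.0%. Jun held 13.7% ± 6.01 in controls, 16.1% ± 5.08 with VWF and 6.04% ± 2.51 with LPS.

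**Figure D3:**
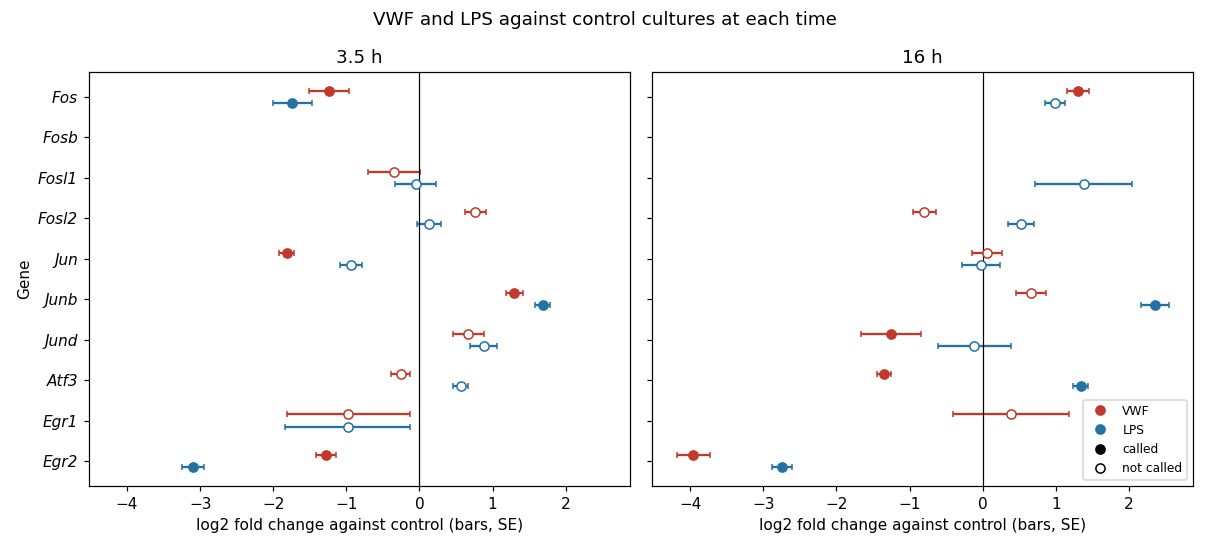
Log2 fold changes of VWF (red) and LPS (blue) cultures against controls at 3.5 h (left) and 16 h (right), on a common axis, with SE bars from edgeR; filled points passed the adjusted p and fold thresholds and open points did not, and genes below the expression filter have no point. Atf3 moved in opposite directions at 16 h (-1.35 with VWF, 1.34 with LPS) and Fos lay below 0 at 3.5 h and above it at 16 h with both treatments.

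Atf3 (ENSMUSG00000026628, chr1:191170296-191218039) had the largest difference between VWF and LPS at 16 h among the 9 members that passed the expression filter. At 3.5 h it had 414, 528, 452, 472 and 436 CPM in controls, 282, 337, 374, 485 and 422 CPM with VWF and 571, 685, 759 and 665 CPM with LPS. VWF and control cultures overlapped (log2 fold change -0.26, SE 0.13, edgeR adjusted p = 0.15). All LPS cultures lay above them, by 0.56 over controls (SE 0.11, edgeR adjusted p = 0.000723), which is under the fold threshold. By 16 h the values were 350.1, 340.3, 333, 351 and 281 CPM in controls, 118, 126, 134, 145 and 131 CPM with VWF and 875, 853, 815 and 735 CPM with LPS. The 3 groups were apart, VWF lowest and LPS highest. Atf3 fell by 1.35 with VWF (SE 0.09, edgeR adjusted p = 2.65e-06; -1.41 without the cultures that stood apart) and rose by 1.34 with LPS (SE 0.10, edgeR adjusted p = 3.45e-06; 1.34 without them). Scaled to library size alone, the rise with LPS was 0.78 and short of the fold threshold. The 6.25-fold direct difference of VWF and LPS had a log2 value of -2.64 (SE 0.09, edgeR adjusted p = 3.15e-08). From 3.5 h to 16 h Atf3 fell by 1.53 in VWF cultures (SE 0.13, edgeR adjusted p = 1.48e-06) and differed by 0.32 in LPS cultures (SE 0.11, edgeR adjusted p = 0.03). The time courses differed by -1.87 (SE 0.18, edgeR adjusted p = 1.78e-07). The change of the VWF effect was -1.06 (SE 0.16, edgeR adjusted p = 3.74e-05). It was -0.95 without VWF culture 4 at 3.5 h, and -0.94 when scaled to library size alone.

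Egr2 (ENSMUSG00000037868, chr10:67535475-67542188), also called Krox20, was high in controls and low after either treatment. At 3.5 h the controls had 88.2, 92.9, 61.3, 88.5 and 71.7 CPM, the VWF cultures 38.7, 31.4, 29.6, 28.4 and 36.0 CPM and the LPS cultures 10.2, 10.2, 8.98 and 7.78 CPM. The groups did not overlap. Egr2 fell by 1.28 with VWF (SE 0.13, edgeR adjusted p = 1.20e-05) and by 3.10 with LPS (SE 0.15, edgeR adjusted p = 1.67e-08), and it was higher with VWF than with LPS by 1.84 (SE 0.13, edgeR adjusted p = 2.08e-06).

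At 16 h the order of the treatments had turned. The controls had 96.3, 95.3, 87.0, 108 and 98.7 CPM, the VWF cultures 4.29, 4.67, 8.31, 5.24 and 8.89 CPM and the LPS cultures 18.0, 14.1, 12.3 and 12.0 CPM. Every VWF culture lay below every LPS culture, and both below the controls. The fall with VWF was 15.5-fold (log2 fold change -3.96, SE 0.23, edgeR adjusted p = 1.28e-06; -3.96 without the cultures that stood apart) and that with LPS 6.70-fold (log2 fold change -2.74, SE 0.14, edgeR adjusted p = 2.66e-07; -2.67 without them). VWF and LPS differed by -1.16 (SE 0.26, edgeR adjusted p = 0.00298), or by -0.70 when scaled to library size alone. For this comparison, and for LPS with time, only LPS culture 1 at 16 h (11.7 TPM) took Egr2 past the expression filter. With no filter VWF and LPS differed at 16 h by -1.17 (edgeR adjusted p = 0.00111). Within the VWF cultures Egr2 fell by 2.38 from 3.5 h to 16 h (SE 0.22, edgeR adjusted p = 2.68e-06), while within LPS cultures the log2 difference was 0.63 (SE 0.17, edgeR adjusted p = 0.012) and within controls 0.27 (SE 0.12, edgeR adjusted p = 0.0979). The time courses of VWF and LPS differed by -3.03 (SE 0.30, edgeR adjusted p = 2.42e-07), the largest such difference among the 9 members tested. The VWF effect changed with time by -2.65 (SE 0.25, edgeR adjusted p = 1.01e-07), whereas the LPS effect changed by 0.36 (SE 0.20, edgeR adjusted p = 0.135).

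Egr1 (ENSMUSG00000038418, chr18:34859823-34864984), the classic serum-response EGR gene, varied more between cultures of a group than between treatments. At 3.5 h the controls had 8.57, 4.85, 5.24, 85.8 and 90.7 CPM, the VWF cultures 15.6, 13.4, 8.13, 25.3 and 35.0 CPM and the LPS cultures 26.1, 21.1, 15.1 and 14.5 CPM. Control cultures 4 and 5 stood more than 70 CPM above the other 3, and all ranges overlapped. Accordingly the log2 fold change was -0.97 with VWF (SE 0.84, edgeR adjusted p = 0.404) and -0.98 with LPS (SE 0.86, edgeR adjusted p = 0.33). By 16 h the controls had 3.54, 1.95, 1.54, 8.61 and 10.7 CPM, the VWF cultures 2.17, 1.77, 1.89, 9.37 and 19.4 CPM and the LPS cultures 5.73, 3.59, 2.59 and 4.36 CPM. Cultures numbered 4 and 5 were above cultures 1 to 3 in the control and VWF groups at both times. For LPS, culture 4 was the lowest at 3.5 h and the second highest at 16 h. Fos showed the same split of the numbers in the control and VWF cultures at 3.5 h and in the VWF cultures at 16 h, not in the controls at 16 h. This split was seen in the data and was not tested.

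With time Egr1 fell by 2.89 in controls (SE 1.00, edgeR adjusted p = 0.039), a call lost when any of 6 of the 10 cultures was left out. These 6 were controls 4 and 5 at 3.5 h and controls 1 to 4 at 16 h, and over all 10 omissions the log2 fold change ran from -3.32 to -2.33 (edgeR adjusted p = 0.023 to 0.0975). In LPS cultures Egr1 fell by 2.22 (SE 0.30, edgeR adjusted p = 0.000199), with ranges that did not overlap. In VWF cultures the log2 fold change was -1.5 (SE 0.69, edgeR adjusted p = 0.074), and with the replicate number as a block -1.99 (edgeR adjusted p = 0.000798). Without VWF culture 5 at 16 h it was -2.35 (edgeR adjusted p = 0.00715).

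**Figure D4:**
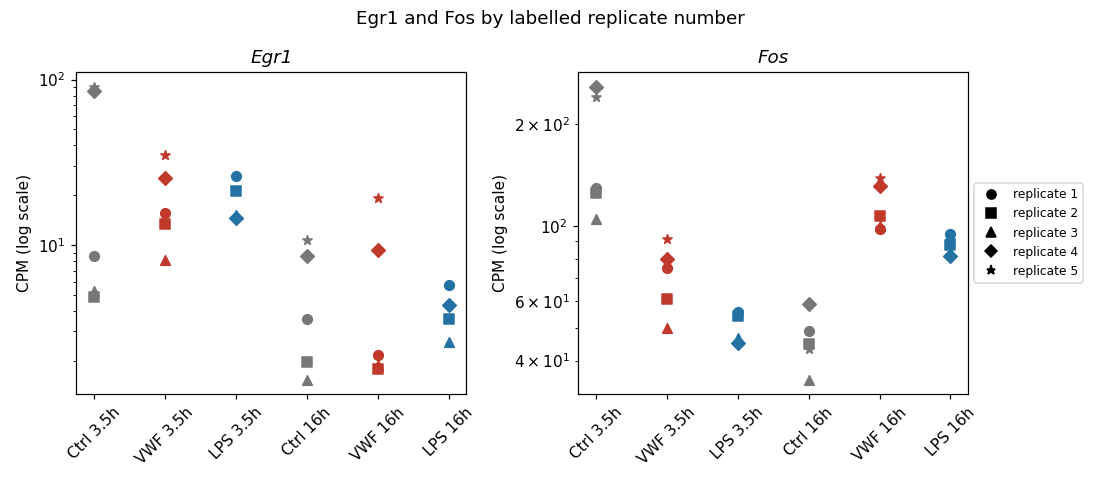
Egr1 (left) and Fos (right) in each culture, in CPM on log axes, with the symbol giving the replicate number of the label and the colour the treatment (grey control, red VWF, blue LPS). Control cultures 4 and 5 at 3.5 h had 85.8 and 90.7 CPM of Egr1, against 4.85 to 8.57 CPM in cultures 1 to 3, and 258 and 239 CPM of Fos, against 105 to 129 CPM.

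Over the change from 3.5 h to 16 h, the VWF and LPS cultures differed in 5 of the 9 members tested, each with the more negative change under VWF, where 25% of all genes differed, 10.7% in the other direction and 14.3% in this one. They were Fosl1, Fosl2, Junb, Atf3 and Egr2. The median over the members tested was -1.31, against -0.08 over all genes. For the remaining 4, the log2 difference was -0.18 for Fos, -0.93 for Jund and 0.68 for Egr1, and Jun went the other way at 0.96 (SE 0.25, edgeR adjusted p = 0.0042), just short of the fold threshold. Jun passed it with no expression filter (1.02), with the edgeR filter (1.04), with all groups in the fit (1.02) and with scaling to library size alone (1.13), and when any of 6 of the 18 cultures was left out, namely LPS culture 1 or VWF culture 5 at 3.5 h or LPS culture 1 or 3 or VWF culture 4 or 5 at 16 h (0.80 to 1.09 over all omissions). Fosl1 lay near the threshold (log2 difference -1.80, SE 0.69, edgeR adjusted p = 0.0367). Among the VWF and LPS cultures it reached 10 TPM only in LPS culture 1 at 16 h (12.7 TPM), and it was not tested without that culture. With no expression filter the log2 difference of Fosl1 was -1.73 (edgeR adjusted p = 0.0805), which did not pass. Its call was lost when any of 8 cultures was left out, of 17 omissions that could be fitted, namely LPS cultures 3 and 4 and VWF cultures 1 and 2 at 3.5 h and VWF cultures 2 to 5 at 16 h (edgeR adjusted p = 0.0119 to 0.076).

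Besides the members, 21 other basic leucine zipper genes of the AP-1, ATF and related families were listed. With VWF at 3.5 h, 3 of 16 tested rose and 1 fell, against 9.1% and 5.59% of all genes. The 3 were Batf (3.15 ± 0.421 CPM in controls, 47.2 ± 11.7 CPM with VWF, log2 fold change 3.92), Jdp2 (21.1 ± 1.05 and 286 ± 36.1 CPM, 3.78) and Batf2 (1.92 ± 0.226 and 20.2 ± 6.53 CPM, 3.41). JDP2 and the BATF proteins are JUN-binding zipper proteins that lack an activation domain. With LPS at 3.5 h 5 of 16 rose and 2 fell, against 12.8% and 11.8% of all genes. Batf2 reached 162 ± 36.4 CPM with LPS, 2.99 log2 units above VWF (edgeR adjusted p = 3.74e-06). At 16 h none of 17 rose with VWF and 1 fell, Crem (log2 fold change -1.54, edgeR adjusted p = 2.26e-06), whereas 6 of 17 rose with LPS and none fell. Of all genes, 4.55% rose and 4.15% fell with VWF at 16 h, and 15.3% rose and 12.4% fell with LPS. The mean of Batf was then 8.47 ± 0.354 CPM in the VWF cultures against 67.9 ± 7.41 CPM in the LPS cultures (log2 fold change -3.00, edgeR adjusted p = 1.95e-08). From 3.5 h to 16 h Jdp2 fell in VWF cultures (log2 fold change -3.97, edgeR adjusted p = 7.12e-10) and in LPS cultures (-1.92, edgeR adjusted p = 4.87e-05).

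The NAB proteins bind EGR1 and EGR2 and repress their activity, and Nab1 and Nab2 were the 2 of 5 listed EGR relatives and corepressors that were expressed enough to be tested. Nab2 was 103 ± 10.3 CPM in controls at 3.5 h and fell by 1.12 with VWF (edgeR adjusted p = 7.34e-07) and by 1.33 with LPS (edgeR adjusted p = 5.16e-07). At 16 h Nab2 fell with VWF by 1.15 (edgeR adjusted p = 2.58e-05), and Nab1 rose with LPS by 1.44 (edgeR adjusted p = 0.00117). Egr3 was at 5.01 ± 1.61 CPM in controls, 1.73 ± 0.397 CPM with VWF and 9.40 ± 1.04 CPM with LPS at 3.5 h, below the filter. Egr3 in the VWF cultures at 16 h was at 0.234 ± 0.152 CPM.

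Upstream of these genes, none of the 6 genes for serum response factor, its ternary complex partners and the MRTF coactivators passed with VWF at 3.5 h or among 5 tested at 16 h. Of all genes, 14.7% and 8.71% passed in these comparisons. With LPS at 3.5 h Mrtfa and Mrtfb fell by 1.58 and 1.35 and Elk4 rose by 1.19 (edgeR adjusted p = 2.58e-06, 4.45e-06 and 0.000281). Of 19 MAP kinase cascade genes, 5 of 16 tested rose with VWF at 3.5 h and 1 fell, against 9.1% and 5.59% of all genes. Map3k8, the kinase TPL2 that drives ERK in macrophages, rose by 2.51 (edgeR adjusted p = 2.79e-09) and Mapkapk2, the p38 target kinase, by 1.40 (edgeR adjusted p = 3.05e-06), while Map3k1 fell by 1.54 (edgeR adjusted p = 1.57e-07). With LPS at 3.5 h 6 of 15 rose and none fell, against 12.8% and 11.8% of all genes. Map3k8 rose by 3.19 (edgeR adjusted p = 1.00e-09). At 16 h none of 14 passed with VWF, where 8.71% of all genes passed. With LPS 3 of 14 rose and none fell, against 15.3% and 12.4% of all genes.

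Also 12 further immediate-early genes were listed. At 3.5 h 3 of 10 tested rose and 3 fell with VWF, against 9.1% and 5.59% of all genes. Nr4a1, Nr4a3 and Myc fell by 2.62, 1.68 and 2.21 (edgeR adjusted p = 2.42e-06, 0.000577 and 1.24e-07), and Ier3 rose by 1.62 (edgeR adjusted p = 0.000397). With LPS 3 rose and 2 fell, against 12.8% and 11.8% of all genes, Myc and Nr4a1 again being lower (log2 fold change -3.27 and -3.21). At 16 h 1 of 9 fell with VWF and none rose, against 4.15% and 4.55% of all genes. With LPS at 16 h 4 of 10 rose and 1 fell, against 15.3% and 12.4% of all genes. Dusp1, a MAP kinase phosphatase, was then 33.8 ± 7.55 CPM with VWF, 63.7 ± 6.26 CPM in controls and 663 ± 35.1 CPM with LPS. VWF was below LPS in 7 of 10 of these genes at 16 h and above it in 1, against 14.5% and 11.1% of all genes. The median log2 difference over the 10 was -1.78.

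Of 8 genes widely taught as AP-1 targets, 7 were tested at 3.5 h with VWF, of which 2 rose and 2 fell, against 9.1% and 5.59% of all genes. Mmp13, the collagenase, rose by 1.86 (edgeR adjusted p = 3.02e-08) and Mmp9 by 1.19 (edgeR adjusted p = 1.61e-05), whereas Plau, the urokinase gene, fell by 2.40 (edgeR adjusted p = 2.77e-07) and Ccnd1, cyclin D1, by 2.27 (edgeR adjusted p = 0.000177). With LPS 4 of 6 rose and 2 fell, against 12.8% and 11.8% of all genes. Mmp13 was higher by 4.38 and Plau and Ccnd1 were lower by 3.14 and 3.36 with LPS (log2 fold changes 4.38, -3.14 and -3.36). At 16 h 1 of 7 rose and 2 fell with VWF, against 4.55% and 4.15% of all genes, and Mmp13 did not pass. Its mean was 22.7 ± 4.10 CPM with VWF, 44.7 CPM in controls and 724 ± 112 CPM with LPS. Mmp9 was higher with VWF than in controls by 3.78 (edgeR adjusted p = 3.80e-05), and Cd44 was lower by 1.36 (edgeR adjusted p = 0.000437). Plau was again lower than in controls with both treatments (log2 fold changes -2.37 with VWF and -1.85 with LPS).

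The genes whose log2 CPM followed the members most closely over the 28 cultures, out of 8867 expressed genes, are a description only, since the cultures share treatments and scaling. They depend on the measure: with Spearman's in place of Pearson's correlation, 1 or 2 of the 3 nearest genes were shared for each of the 9 members. For Junb they were Rhbdf2, Tle3 and Tnf (Pearson r = 0.977, 0.962 and 0.962), for Atf3 Cd86, Rcan1 and Lrrfip2 (r = 0.973, 0.943 and 0.939) and for Egr2 Tecpr1, Slain2 and Plau (r = 0.961, 0.949 and 0.896). For Jund they were Ube2b, Cyth2 and Ppp6c (r = 0.955, 0.939 and 0.926), for Fosl2 Ammecr1l, Adm and Celf1 (r = 0.918, 0.911 and 0.910) and for Jun Tbkbp1, Tpcn2 and Cttnbp2nl (r = 0.909, 0.872 and 0.863). Jund was highest in control culture 5 and LPS culture 4 at 16 h (577 and 393 CPM), which stood apart. The part of these cultures in its correlations was not tested. Fosl1 lay near Tnks1bp1 and Unc5b (r = 0.903 and 0.884). The likeness was weakest for Fos, with Zswim6, Nup50 and Slc27a1 (r = 0.812, 0.788 and 0.773), and for Egr1, with Ier2, Srrm1 and Edc4 (r = 0.763, 0.745 and 0.744).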

How the data were processed

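The deposited table held raw read counts per Ensembl gene for 28 cultures, which the authors made from paired-end reads with STAR on mouse GRCm38 (mm10), with annotation version, counting rule and strand setting not given in the sources used here. Symbols, exon lengths and coordinates came from a GENCODE annotation of GRCm38, and TPM was computed from the counts and those lengths.

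CPM were scaled with TMM factors (0.735 to 1.18) from genes with at least 10 TPM. Differential expression was tested with edgeR 4.0.16 in R 4.3.3 (glmQLFit, robust, glmQLFTest; Benjamini-Hochberg adjustment over all genes tested), using only the groups compared, or 4 groups for changes with time; the expression filter and thresholds are those of the study, whose tool, DESeq2, was run here (version 1.42.0) as an alternative. The scripts were tested on simulated data. Same-numbered cultures deviated together (every correlation above 0.1) only for VWF against LPS at 16 h (0.16 to 0.781, 4 pairs), and in that comparison a replicate block changed no call. The main fits have no replicate block, since the replicate numbers have no stated meaning. No cultures within a group were duplicates (52 pairs compared).

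Members and lists were chosen with earlier results of these data known. Text names all 10 members, from each list up to 4 genes with the largest fold change among those passing in each comparison, and the 3 genes most correlated with each member; Egr3 was added after its values were seen. Alternatives covered the tool, scaling, filter, fold threshold, samples in the fit, replicate block and leaving out cultures. Counts limit precision most for Fosb, Fosl1 and Egr1. A few results that fall under this rule are not reported here.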

Additional observations from a re-analysis of the deposited data

Results flagged for a closer look

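In 60 sets of a member and a group, 3 held a culture far from the rest by Dixon's ratio, and chance flags about 1 in 20. Jund in control culture 5 at 16 h was 577 CPM, against 143 to 178 CPM in the other 4. Atf3 in the same culture was 281 CPM, against 333 to 351 CPM. Fosb in LPS culture 1 at 16 h was 1.96 CPM, against 0.504 to 0.576 CPM.

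A test of the difference between 2 effects passed in 12 cases. The VWF effect against control changed from 3.5 h to 16 h by 2.58 for Fos, 1.91 for Jun, -1.53 for Fosl2, -1.90 for Jund, -1.06 for Atf3 and -2.65 for Egr2 on the log2 scale (edgeR). The LPS effect changed by 2.75 for Fos. The change with time differed between VWF and LPS by -1.80 for Fosl1, -1.96 for Fosl2, -1.31 for Junb, -1.87 for Atf3 and -3.03 for Egr2. Fosl1 passed the expression filter there only through LPS culture 1 at 16 h.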

How the results depend on the processing

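No member whose difference passed the thresholds, in the main fit or an alternative, changed direction in any alternative run. DESeq2 and median-of-ratios factors kept every call of the members. With no fold threshold, the count of members passing went from 3 to 6 for LPS against control at 3.5 h, from 1 to 6 for VWF against LPS at 3.5 h, from 3 to 5 for LPS against control at 16 h, from 3 to 6 for controls with time, from 2 to 5 for LPS with time and from 1 to 4 for the change of the LPS effect. Leaving out each culture in turn gave 3 to 5 members for LPS against control at 3.5 h (5 without LPS culture 2, with Jun at -1.05 and Jund at 1.00) and 1 to 3 for the change of the LPS effect (3 without control culture 1 or LPS culture 4 at 16 h, 2 without LPS culture 2 at 3.5 h). Without control culture 5 and LPS culture 4 at 16 h, a setting chosen after seeing the data, these counts were 5 for LPS against control at 16 h and 2 for the change of the LPS effect.

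With a replicate block, 2 members passed for the change of the LPS effect, Fos and Fosl1. The other counts stayed within 1.5 times, but Jund lost its call for VWF against control at 16 h, and Egr1 in VWF cultures with time (-1.99) and Fosl1 in controls with time (-1.37) gained 1. The numbers are not known to pair the cultures.

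Scaling to library size alone shifted the median log2 fold change of all genes by -0.54 and -0.56 for LPS against control at 3.5 h and 16 h, -0.21 for VWF against control at 3.5 h and 0.46 for VWF against LPS at 16 h, where 3 members then passed in place of 6. The share of higher calls among all genes went from 52.1% to 24.1% for LPS against control at 3.5 h and from 43.3% to 72.1% for VWF against LPS at 16 h. Under it Atf3 with LPS at 16 h was 0.78, and Fosl2, Jund and Egr2 for VWF against LPS at 16 h were -0.82, -0.62 and -0.70. The change of the VWF effect for Atf3 was then -0.94, short of the fold threshold. Jun for LPS against control at 3.5 h was -1.48, beyond that threshold. The cause was not tested. Jund for VWF against control at 16 h was also lost without any of control cultures 1, 4 and 5 and VWF cultures 1, 2, 3 and 5 (-1.47 to -0.67 over all 10 omissions), and Jun with time in VWF cultures without 3 of 10 (0.97 to 1.10). With CPM in place of TPM the leading gene of a family was the same in 10 of 12 cases, the exceptions being Fosl2 in place of Fos at 3.5 h with VWF and with LPS.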
